A study of Bos taurus with 27 samples.

Results

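The ectonucleotide pyrophosphatase/phosphodiesterase (ENPP) family was examined in the rumen epithelium (RE), the keratinized, many-layered lining of the forestomach through which volatile fatty acids are taken up. Its members were taken as the probes, other than control spots, whose gene name on the array was ENPP1, ENPP2, ENPP3, ENPP4, ENPP5 or ENPP6. Each name had 1 probe, so the family was 6 of 14952 gene names, which stood on 15008 probes, and 0 other probes carried an ENPP name. The family was chosen by the measured ENPP3 values, which were far lower at the middle stage and ended above the early level. The values of ENPP3 are therefore a description with no test, whereas the other 5 members were taken by name.

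Punch biopsies of the RE came from the ventral part of the rumen of 9 Japanese Black cattle, each sampled in the early stage of fattening (14 months of age), in the middle stage (21 months) and in the late stage (29 months). All were castrated males with a rumen fistula, fed concentrate and rice straw throughout, with no group kept on an unchanged diet, so age, diet and stage cannot be told apart. The RNA of every biopsy, carrying the dye cyanine 3, was read on its own custom bovine array of 60-base oligonucleotides, which gave 27 arrays, 9 per stage. Animal numbers are the numbers that end the sample titles, assumed to mean the same animal at each stage. The tissue label is rumen epithelium, and the probes of all 18 markers of stratified epithelium that were looked for were on the array. Of these, 15 passed background on all early and middle arrays, whereas KRT4, a keratin, did so on 0 of 27 arrays and LOR, a protein of the cornified layer, on 3 early arrays.

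ENPP enzymes cut phosphodiester and pyrophosphate bonds at the cell surface or in the extracellular space. ENPP1 and ENPP3 split nucleotides such as ATP into a nucleoside monophosphate and pyrophosphate, which other surface enzymes then turn into adenosine and phosphate. ENPP4 cleaves dinucleoside polyphosphates, and ENPP5 is a membrane protein of the family whose substrates are less well defined. ENPP2 (autotaxin) is a secreted lysophospholipase D that makes lysophosphatidic acid, and ENPP6 releases phosphocholine from choline phospholipids. In epithelia, extracellular ATP and adenosine act on P2 and adenosine receptors that control ion transport and barrier function.

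The probes of ENPP1, ENPP2, ENPP3 and ENPP5, which hold an open reading frame and have a genome position, are printed to show which stretch of each transcript the values rest on. They are in lower case, 5′ to 3′, as the array design gives them, and no base is in capitals because no part of a probe was singled out.

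ENPP1: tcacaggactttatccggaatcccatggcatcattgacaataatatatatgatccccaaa
ENPP2: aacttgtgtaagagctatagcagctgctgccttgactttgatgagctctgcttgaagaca
ENPP3: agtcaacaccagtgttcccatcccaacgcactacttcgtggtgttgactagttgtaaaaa
ENPP5: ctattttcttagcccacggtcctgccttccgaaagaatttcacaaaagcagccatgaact

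Positions are those of the array annotation, on the UMD_3.1 build of the bovine genome. The ENPP3 probe lies at chr9:70666442-70666501 on the plus strand and starts at base 2386 of transcript NM_001075923. The ENPP1 probe lies at chr9:70776019-70776933 on the plus strand and starts at base 806 of NM_001206212. Its 60 bases are spread over 915 bases of the genome, so that its alignment is split. The ENPP2 probe lies at chr14:83444220-83444279 on the minus strand and starts at base 269 of NM_001080293. The ENPP4 probe lies at chr23:19382755-19382814 on the plus strand and starts at base 3199 of NM_001081535, and the ENPP5 probe lies at chr23:19388959-19389018 on the minus strand and starts at base 1105 of NM_001206724. The ENPP6 probe starts at base 1395 of the transcript BT021729 and has no genome position in the annotation. In the gene table of the reference, 0 protein-coding genes lie between ENPP3 and ENPP1 on chromosome 9, and 0 between ENPP4 and ENPP5 on chromosome 23. The exon or untranslated region under each probe was not determined here.

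A level is the log2 of the processed intensity of a probe minus the median log2 intensity of its array, so that 0 is the array median, and levels are not compared between probes. The processed intensity is called the signal. The middle arrays were dimmer than the others: their median signal was 8.22 to 28.7, against 35.2 to 48.6 at the early and 32.2 to 47.0 at the late stage. The share of probes that the scanner software marked well above background was 48.5% to 71.5% at the middle stage, 68.8% to 78.1% at the early and 68.4% to 73.7% at the late stage. The median change of all probes was 0.33 on the log2 scale in the first period (middle against early stage), −0.28 in the second period (late against middle) and 0.03 in the total period (late against early), and changes relative to it are given for the members. Over probes well above background on every array the medians were 0.08, 0.09 and 0.13. The ENPP3 and ENPP5 probes were of this kind, so the all-probe median is not that of probes as bright as theirs. Slide 1 held 8 early arrays, slide 2 held 1 early and 7 middle arrays, slide 3 held 2 middle arrays, and slides 4 and 5 held the late arrays alone.

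ENPP3 had the widest swing of the family. Its signal was 474, 971 and 2143 (lowest, median and highest of 9 arrays) on the early arrays, 11.2, 85.6 and 183 on the middle arrays, and 1495, 1855 and 2475 on the late arrays. The middle signals lay below every early and late signal, although the probe was well above background and not saturated on all 27 arrays. On the level scale ENPP3 stood at 4.75 ± 0.59 (SD, n = 9) in early, 2.00 ± 0.69 in middle and 5.67 ± 0.19 in late biopsies. The early levels ran from 3.75 to 5.78, the middle levels from 0.45 to 2.93 and the late levels from 5.36 to 5.97. The middle levels overlapped neither of the other stages, the early and late levels overlapped, and the late stage had the smallest spread between cattle.

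Within animals, the ENPP3 level was lower at the middle than at the early stage in 9 of 9 cattle. The difference was −2.75 on the log2 scale (SE 0.24, SD over cattle 0.90), a 6.72-fold lower level, and −3.07 once the median over all probes was taken off. It ran from −3.94 in animal 4, whose middle array was the dimmest, to −1.24 in animal 1. In the second period the level was higher in 9 of 9 cattle, by 3.67 (SE 0.24, SD 0.76, 12.7-fold), or 3.95 relative to the median, with a range of 2.78 to 5.33. Probes well above background on every array had medians of 0.08 and 0.09 in these periods. The late level exceeded the early level in 8 of 9 cattle, by 0.92 (SE 0.24, SD 0.60, 1.90-fold), and animal 7, the exception, stood at −0.21. Among 15008 probes this ranked ENPP3 as 13 from the largest fall in the first period, 4 from the largest rise in the second and 266 from the largest rise in the total period.

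**Figure D1:**
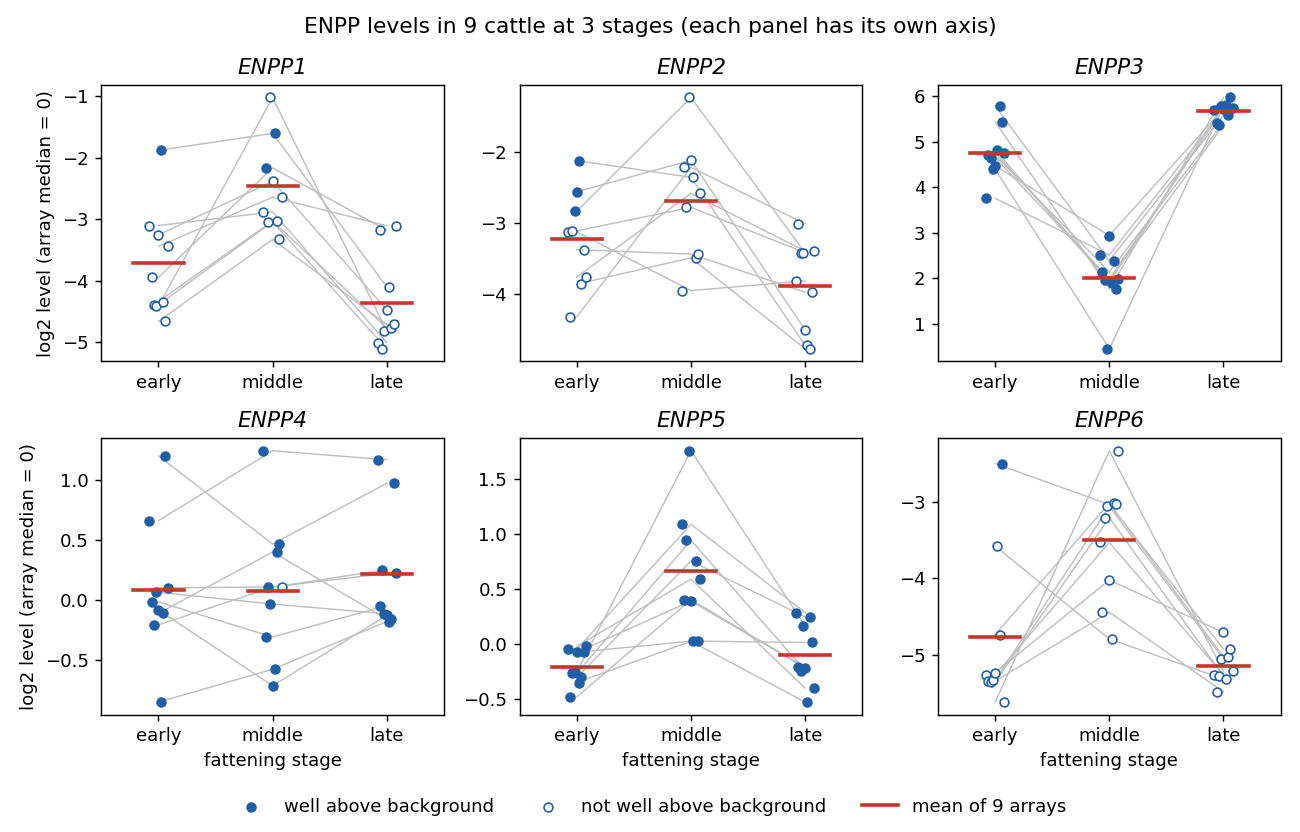
Log2 level (array median = 0) of the 6 ENPP probes by fattening stage. Points are arrays, gray lines join the arrays of an animal, red bars are means of 9 arrays, and open points were not well above background. ENPP3 fell from a mean of 4.75 to 2.00 and stood at 5.67 at the late stage, ENPP4 stayed within −0.85 to 1.24, and most points of ENPP1, ENPP2 and ENPP6 are open.

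The sign of the ENPP3 differences held under other treatments of the arrays, while their size varied. With 75th percentile scaling, quantile normalization and cyclic loess normalization the first period gave −2.69, −2.74 and −2.70, and normexp background correction gave −2.35. The second period gave 3.49, 3.53, 3.46 and 3.46 under the same settings, and the total period gave 0.81, 0.78, 0.76 and 1.11. Within slide 2 the middle arrays stood 2.72 below the single early array (difference −2.72, SE 0.72). That early array came from animal 9 and the middle arrays from animals 1 to 7, so this comparison was not paired. Within the scan day that held both stages the difference was −2.61 (SE 0.31). Fitting the slide as a fixed block, which leaves the comparison largely to that single early array, gave −1.94 (SE 1.02). Late arrays shared no slide or scan day with the other stages. With the slide as a random block the late level was 3.71 (SE 0.43) above the middle and 0.97 (SE 0.44) above the early level.

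**Figure D2:**
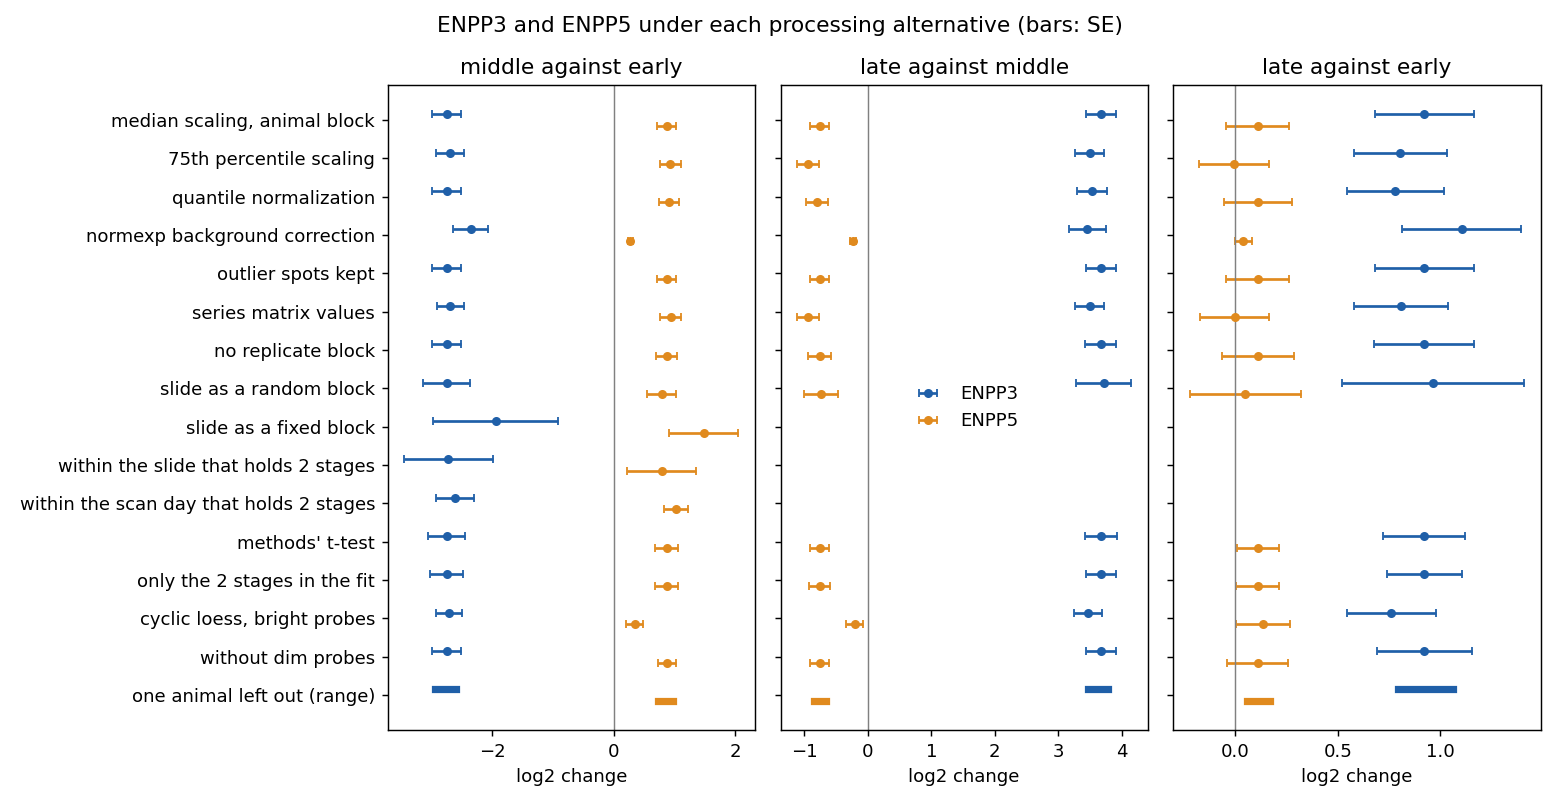
Log2 change of ENPP3 (blue) and ENPP5 (orange) in each comparison under each processing alternative, with bars for the SE and, in the bottom line, thick bars for the range with 1 animal left out. The axis range differs between panels. ENPP3 kept its sign in every line, from −2.94 to −1.94 in the first and 3.46 to 3.78 in the second period, while the ENPP5 change shrank to 0.34 and −0.21 under cyclic loess and to 0.27 and −0.23 under normexp correction.

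ENPP3, also called CD203c, is best known as a surface marker of basophils and mast cells and is also made by several epithelia. Of 12 markers of mast cells and basophils, 9 were on the array. In the first period 3 of these 9 rose and 0 fell, in the second 2 rose and 3 fell, and in the total period 0 were called, where 45.3% of all probes were called higher in the first and 26.7% higher and 44.8% lower in the second period. CPA3, a mast cell carboxypeptidase, was well above background on 0 of 27 arrays, and KIT, the stem cell factor receptor, on 2 early, 2 middle and 1 late array. HDC, which makes histamine, changed by 0.97 (SE 0.22, adjusted *P* = 0.000927) and then by −0.75 (SE 0.22, adjusted *P* = 0.0054). GATA2, a transcription factor of these cells, rose by 0.55 (SE 0.20, adjusted *P* = 0.0234) in the first period. The signs of ENPP3 were shared by TPSB2, a tryptase (−0.49, adjusted *P* = 0.201, then 1.09, adjusted *P* = 0.0068, passing background on 1 middle array), and FCER1A, a chain of the IgE receptor (−0.54, adjusted *P* = 0.0748, then 0.65, adjusted *P* = 0.0308). Values thus ran both ways among these markers. The summed level of the 9 markers, in multiples of the array median, was 61.4 to 103 in early, 40.7 to 126 in middle and 77.4 to 105 in late biopsies, and MS4A2 was not matched to a probe.

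Markers of stratified epithelium moved in part with ENPP3. In the first period 8 of 18 fell and 2 rose, against 21.2% and 45.3% of all probes, and in the second 5 rose and 3 fell, against 26.7% and 44.8%. Their summed level was 6803 to 8675 times the array median in early, 3557 to 8421 in middle and 7430 to 9215 in late biopsies. Markers of smooth muscle moved the other way, with 5 of 8 higher and 0 lower in the first period and 7 of 8 lower in the second, and those of red blood cells gave 4 of 6 higher and 3 of 6 lower, beside the 45.3% of all probes called higher in the first and 44.8% lower in the second period. Of 9 fibroblast markers, 3 were higher and 1 lower in the first period, and 1 was higher and 5 lower in the second. For endothelium 3 of 8 were higher and 1 lower, then 0 higher and 3 lower. For leukocytes 5 of 13 were higher and 1 lower, then 2 higher and 7 lower, beside the same shares of all probes. Summed levels were 115 to 395, 103 to 869 and 127 to 215 for smooth muscle, and 39.1 to 68.4, 104 to 197 and 45.3 to 90.7 for red blood cells, in early, middle and late biopsies. The part of these cell types in the ENPP3 values was not tested, and in a biopsy fewer cells of a type and less RNA per cell cannot be told apart.

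Of the 5 members other than ENPP3, limma called 3 higher and 0 lower in the first period, where 66.5% of all probes were called, 45.3% higher and 21.2% lower. In the second period it called 0 higher and 4 lower, where 71.5% of all probes were called, 26.7% higher and 44.8% lower. In the total period it called 0 of 5, where 20.0% of all probes were called in either direction, and at an unadjusted *P* of 0.05 it called 2, ENPP1 and ENPP2. The methods' t-test, paired within animals with Benjamini-Hochberg adjustment, gave the same numbers of 3, 4 and 0. No share of all probes is given for that test or for the unadjusted *P*. Only ENPP5 passed background on every array, and the called probes besides it were ENPP1 and ENPP6 in the first, and ENPP1, ENPP2 and ENPP6 in the second period. After quantile normalization 1 of 5 members was called in each of these periods. Of all 15008 probes it called 3677 higher and 3492 lower in the first period, and 4060 and 3860 in the second.

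ENPP5 rose and fell against the direction of ENPP3. Its signal was 26.5, 35.5 and 47.9 (lowest, median and highest) on the early arrays, 17.8, 29.2 and 35.1 on the middle and 29.0, 37.9 and 43.1 on the late arrays. On this linear scale the middle arrays were the lowest, and they overlapped the others. Set against the median of each array, the level was −0.21 ± 0.16 (SD, n = 9) in early, 0.66 ± 0.55 in middle and −0.10 ± 0.29 in late biopsies, so that the middle levels were above all early ones.

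The ENPP5 level rose in 9 of 9 cattle in the first period, by 0.87 (SE 0.15, adjusted *P* = 9.21e-05), or by 0.55 with the all-probe median taken off. It fell in 9 of 9 cattle in the second, by 0.76 (SE 0.15, adjusted *P* = 0.00023), or by 0.49 with that median taken off. The late level was 0.11 (SE 0.15, adjusted *P* = 0.691) above the early level, with a 95% interval of −0.21 to 0.43. Cyclic loess normalization, run on bright probes alone, gave 0.34 (adjusted *P* = 0.0287) in the first period and −0.21 (adjusted *P* = 0.168) in the second, which was no longer called. Normexp correction, whose offset compresses dim probes, gave 0.27 (adjusted *P* = 0.00016) and −0.23 (adjusted *P* = 0.00024). Fitting the slide as a fixed block gave a first change of 1.48 (SE 0.56, adjusted *P* = 0.113), and within slide 2 it was 0.79 (SE 0.57). Slide 2 holds 1 early array, from another animal than its middle arrays, so the comparison within it was not paired.

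ENPP4, in the same chromosomal neighborhood as ENPP5, differed between cattle rather than between stages. Its level was 0.09 ± 0.57 (SD, n = 9) in early, 0.08 ± 0.59 in middle and 0.22 ± 0.51 in late biopsies, and the probe was well above background on 9, 8 and 9 arrays. The changes were −0.01 (adjusted *P* = 0.963, 95% interval −0.29 to 0.28) in the first, 0.14 (adjusted *P* = 0.355, −0.14 to 0.43) in the second and 0.14 (adjusted *P* = 0.547, −0.15 to 0.42) in the total period. A change of up to about these bounds cannot be told from 0 with 9 cattle.

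Animals 1 and 8 carried the highest ENPP4 levels at every stage. Animal 1 stood at 0.66, 1.24 and 1.17 and animal 8 at 1.20, 0.47 and 0.97 in early, middle and late biopsies, while the other 7 animals ran from −0.85 to 0.40. These arrays lay on slide 1 (early), slides 2 and 3 (middle) and slide 4 (late). Of the sum of squares of the 27 ENPP4 levels, 82.5% lay between cattle and 1.54% between stages. The share between cattle was at the 99.8th percentile of 8440 probes and was 82.7% to 83.8% under 75th percentile scaling, quantile normalization and normexp correction. ENPP3 had 2.99% between cattle and 90.6% between stages, and ENPP5 had 22.3% and 55.2%.

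**Figure D3:**
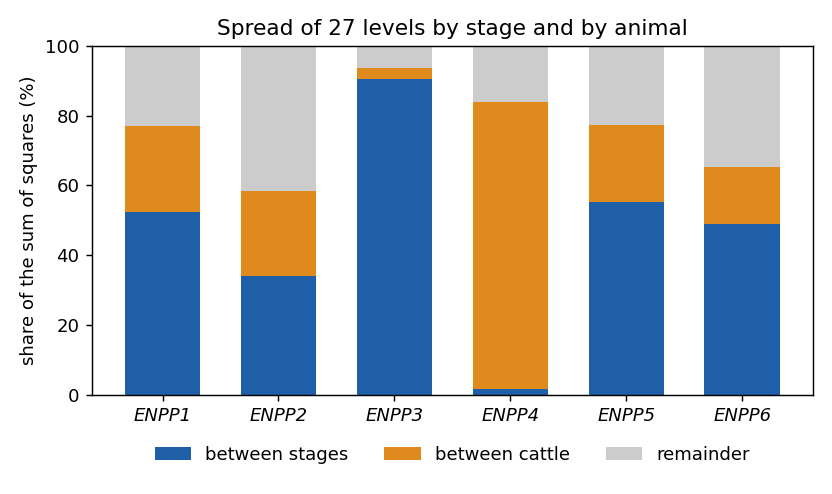
Share (%) of the sum of squares of the 27 log2 levels of each ENPP probe that lay between the 3 stages (blue), between the 9 cattle (orange) and in the remainder (gray). ENPP3 lay almost wholly between stages (90.6%) and ENPP4 almost wholly between cattle (82.5%).

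**Figure D4:**
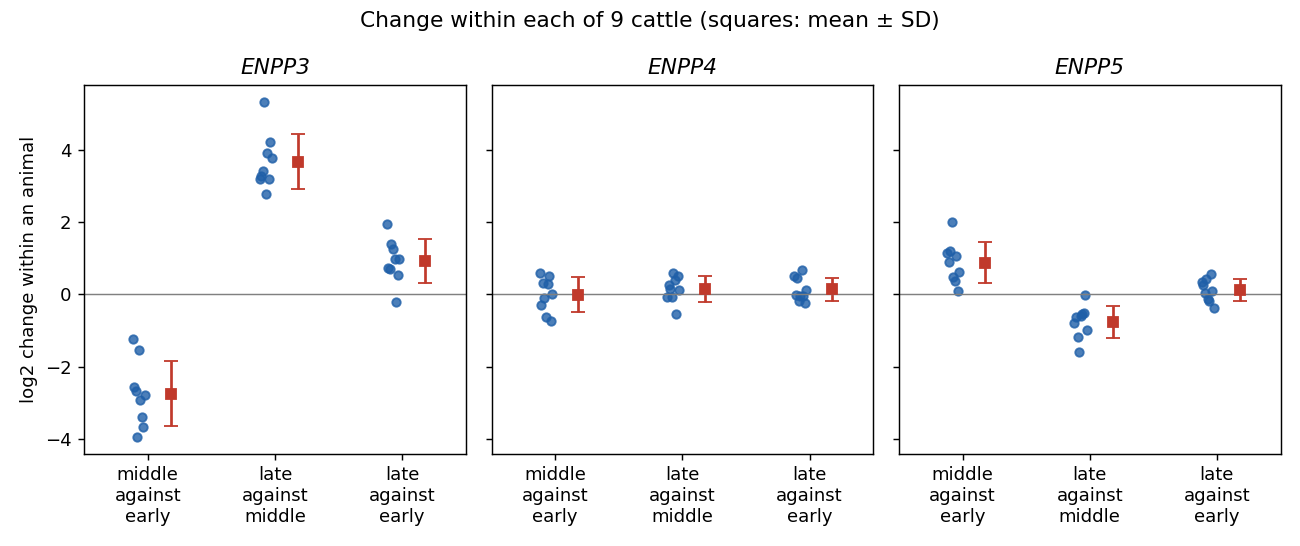
Log2 change within each of the 9 cattle (points) for ENPP3, ENPP4 and ENPP5 in the 3 comparisons, with the mean ± SD as red squares and bars. All 9 points of ENPP3 were below 0 in the first and above 0 in the second period, those of ENPP5 the reverse, and those of ENPP4 lay on both sides of 0.

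ENPP1, the other pyrophosphate-making member, was well above background on 1 early, 2 middle and 0 late arrays. Its signal was 1.55 to 12.3 on early, 1.74 to 9.46 on middle and 1.06 to 5.07 on late arrays. limma called it higher in the first (adjusted *P* = 0.0012) and lower in the second period (adjusted *P* = 1.8e-05), and in neither after quantile normalization (adjusted *P* = 0.251 and 0.0544). Since most arrays of every stage did not measure it, no size is given for either change.

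ENPP2 was well above background on 3 early arrays and on 0 of the 18 middle and late arrays. The signal was 1.86 to 10.4 on early, 1.07 to 5.60 on middle and 1.18 to 5.05 on late arrays. It was not called in the first period (adjusted *P* = 0.128) and was called lower in the second (adjusted *P* = 0.0019), but not after quantile normalization (adjusted *P* = 0.647). Over the total period it was called lower without animal 2 (adjusted *P* = 0.0418), but not with all cattle (adjusted *P* = 0.146). No size is given, since 0 middle and 0 late arrays measured the probe.

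ENPP6 was well above background on 1 early array alone. The signal ran from 0.91 to 6.93 on early, 0.98 to 2.74 on middle and 0.91 to 1.80 on late arrays. It was called higher in the first (adjusted *P* = 0.0028) and lower in the second period (adjusted *P* = 0.00026), and in neither after quantile normalization (adjusted *P* = 0.944 and 0.244), and again no size is given. The lowest level at which any probe was well above background was itself higher at the middle stage, at −2.57 to −0.35, than at the early (−3.37 to −2.47) or late stage (−3.26 to −2.45). The part of the dimmer middle arrays in the calls of ENPP1, ENPP2 and ENPP6 was not tested.

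The genes whose levels followed ENPP3 most closely over the 27 arrays were sought among 8264 probes well above background on at least 25 arrays. By Pearson's r of the levels these were SLC35F5, an orphan transporter (r = 0.983), SPTLC1, a subunit of serine palmitoyltransferase, which starts sphingolipid synthesis (0.981), ATP6V1A, the catalytic subunit of the vacuolar proton pump (0.977), ZFAND6, a zinc finger protein (0.974), and HAGH, a glyoxalase (0.969). SLC35F5 changed by −1.46, 2.12 and 0.66 in the first, second and total periods, and ATP6V1A by −2.26, 2.65 and 0.39. The middle stage was the lowest for all 5 genes, which follows from their choice by likeness to the ENPP3 levels.

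After the mean of each stage had been removed, probes among the closest were CYB5R1, a cytochrome b5 reductase (r = 0.892), SLC35F5 (0.889), GRHL1, an epithelial transcription factor (0.877), and METRNL, a secreted protein (0.871). These values share the arrays and their scaling, and are descriptions over 27 arrays of 9 cattle. On the dimmest array, middle stage of animal 4, ENPP3, CYB5R1, SLC35F5, GRHL1 and METRNL all lay below the range of the other middle arrays. There CYB5R1 stood at 1.09 (the others at 2.47 to 3.45) and GRHL1 at 2.70 (4.23 to 5.12). How far the r values rest on that array was not tested. Of the family, ENPP5 gave r = −0.73 with ENPP3, which was chosen for its stage pattern, and ENPP4 gave 0.099. With stage means removed the values were −0.35 and 0.044. No r is given for ENPP1, ENPP2 and ENPP6, which lay at background on most arrays.

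The pathways around the ENPP enzymes were followed through 6 lists, from surface nucleotide hydrolases to choline handling, of whose 94 genes 86 were on the array. In the first period 26 rose, 21 fell and 39 were not called, with a median of 0.09 against 0.33 for all probes. In the second period 30 rose, 28 fell and 28 were not called, with a median of 0.04 against −0.28. In the total period 10 rose, 3 fell and 73 were not called, with a median of 0.10 against 0.03. Over all probes 66.5% were called in the first period, 45.3% higher and 21.2% lower. In the second 71.5% were called, 26.7% higher and 44.8% lower, and in the total period 20.0%. The counts of each list below stand beside these same shares, which were not counted for bright genes alone. In the first period, 55.3% of the calls in these lists and 68.1% of those over all probes were rises, and for the lists this became 36.1% (13 rises, 23 falls) after quantile normalization and 36.4% (12 and 21) without dim probes, with 51.3% and 50.2% over all probes. In the second period 51.7% of the list calls and 37.3% of all calls were rises, and for the lists this became 37.5% (21 and 35) with 75th percentile scaling and 69.2% (27 and 12) after quantile normalization, with 29.5% and 51.3% over all probes. In the total period 76.9% of the list calls and 54.9% of all calls were rises, and for the lists 60.0% (6 and 4) with 75th percentile scaling and 62.5% (5 and 3) after quantile normalization, with 33.8% and 49.6% over all probes. Rises without dim probes were 85.7% (12 and 2) for the lists and 63.7% over all probes.

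**Figure D5:**
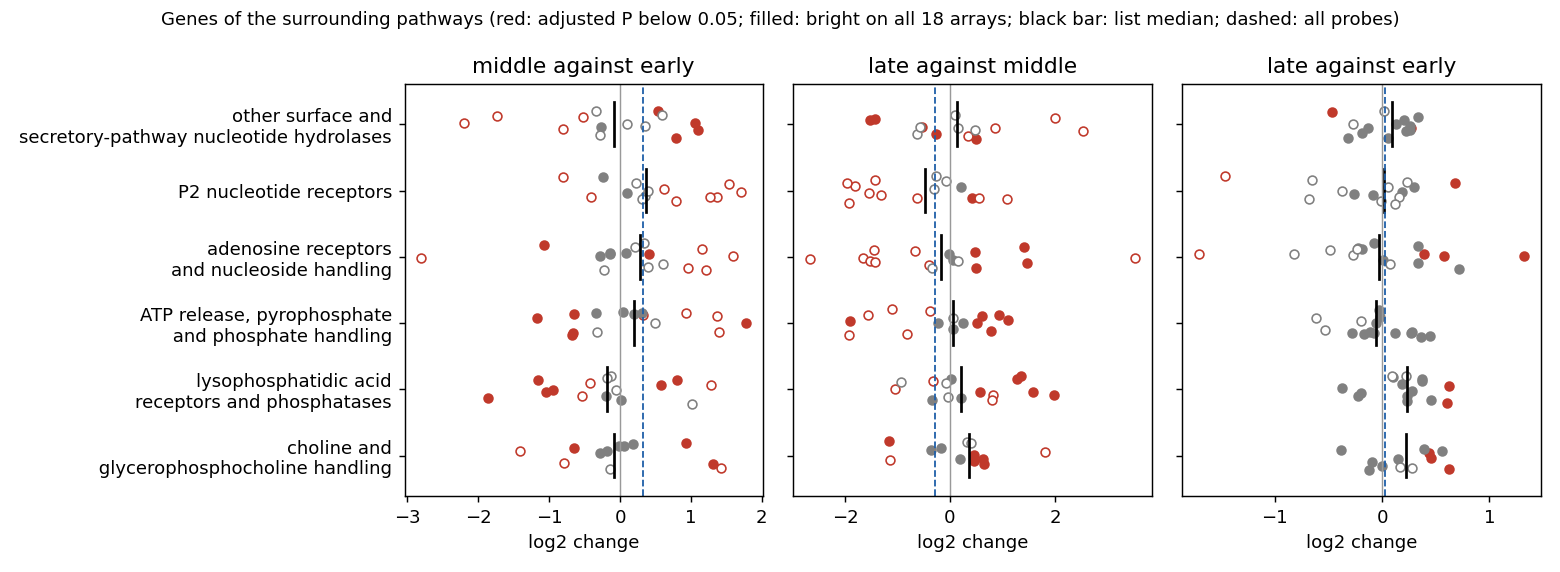
Log2 change of each gene of the 6 pathway lists in the 3 comparisons. Red points had an adjusted *P* below 0.05, filled points were well above background on all 18 arrays compared, black bars are list medians and the dashed line is the median of all probes (0.33, −0.28 and 0.03). In the total period most points lay near 0, and 13 of 86 were called, beside 20.0% of all probes.

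Among the 14 other nucleotide hydrolases on the array, 4 rose and 4 fell in the first period, 5 rose and 4 fell in the second, and 1 rose and 1 fell in the total period. Of the 5 well above background on all early and middle arrays, 4 rose and 0 fell in the first period. Of the 5 well above background on all middle and late arrays, 1 rose and 4 fell in the second. ALPL, the alkaline phosphatase that cleaves pyrophosphate, changed by −2.20 (SE 0.20, adjusted *P* = 1.24e-07) and 2.53 (SE 0.20, adjusted *P* = 6.7e-09), and its probe was bright enough to pass background on 9 early, 1 middle and 9 late arrays. The middle level of ALPL thus lay mostly at background, and these fitted changes are not exact sizes. NT5E, the surface enzyme that makes adenosine from AMP, was at −0.27 (adjusted *P* = 0.215) in the first period and rose by 0.49 (SE 0.19, adjusted *P* = 0.0265) in the second, a call that was lost in 7 of 11 other settings, the methods' t-test among them (adjusted *P* = 0.105), and without any 1 of 5 cattle. ACP3, a phosphatase that also cleaves AMP, rose by 1.05 (adjusted *P* = 6.96e-06), fell by 1.52 (adjusted *P* = 4.34e-08) and ended 0.46 lower (change −0.46, adjusted *P* = 0.0274), the last call being lost in 2 of 11 settings and without any 1 of 7 cattle. ENTPD5, a nucleoside diphosphatase of the secretory pathway, rose by 1.10 (SE 0.21, adjusted *P* = 0.000187) and fell by 1.42 (SE 0.21, adjusted *P* = 9.67e-06). Its total change of −0.32 was not called (adjusted *P* = 0.316). ENTPD2, a surface ATPase, ended 0.27 higher (SE 0.09, adjusted *P* = 0.0395; lost in 7 of 11 settings and without any 1 of 6 cattle), and ENTPD1, which takes ATP to AMP, was called in no comparison (0.10, 0.10 and 0.20).

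Among 14 P2 receptors, 6 rose and 2 fell in the first period, 3 rose and 7 fell in the second, and 1 rose and 1 fell in the total period. Only 2 of the 14 were well above background on all early and middle arrays. P2RY2, the ATP and UTP receptor of many epithelia, changed by −0.41 (adjusted *P* = 0.0207), 1.09 (adjusted *P* = 3.77e-06) and 0.68 (adjusted *P* = 0.0031), and its probe passed background on 9 early, 1 middle and 9 late arrays, so that sizes against the middle stage are not exact. With normexp correction the changes of the first and second periods were 0.14 and −0.01, and the call of the first period was lost in 4 of 13 settings and without animal 2 or 4 (adjusted *P* = 0.064 and 0.0607). P2RY6, a UDP receptor, rose by 0.43 (adjusted *P* = 0.0188) in the second period, but by 0.25 (adjusted *P* = 0.138) with 75th percentile scaling, and the call was also lost from the series matrix, with slides as random blocks and without animal 4.

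Among 16 genes of adenosine receptors and nucleoside handling, 5 rose and 2 fell in the first period, 5 rose and 7 fell in the second, and 3 rose and 1 fell in the total period. Of the 6 well above background on all early and middle arrays, 1 rose and 1 fell in the first period. Of the 6 well above background on all middle and late arrays, 4 rose and 0 fell in the second. SLC29A4, a nucleoside and monoamine transporter, rose by 1.47 (SE 0.15, adjusted *P* = 1.36e-07) in the second period and stood 1.33 above its early level (SE 0.15, adjusted *P* = 5.53e-06), higher in 9 of 9 cattle. PNP, which splits inosine and guanosine, fell by 1.08 (adjusted *P* = 5.54e-05) in the first period and rose by 1.415 (adjusted *P* = 1.78e-06) in the second. Its total change of 0.34 was not called (adjusted *P* = 0.206). ADK, adenosine kinase, rose by 0.41 (adjusted *P* = 0.0138) in a fit with 1 outlier spot missing, and normexp correction gave −0.11. The ADK call was also lost in 4 of 14 settings, with the slide as a random block (adjusted *P* = 0.0812) and within the scan day (adjusted *P* = 0.0671) among them. ADORA2B, an adenosine receptor, was well above background on all arrays and was called in no comparison (−0.29, 0.06 and −0.23).

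Among 15 genes of ATP release, pyrophosphate and phosphate handling, 5 rose and 4 fell in the first period, 5 rose and 6 fell in the second, and 0 were called in the total period. Of the 9 well above background on all early and middle arrays, 1 rose and 4 fell in the first period. Of the 9 well above background on all middle and late arrays, 5 rose and 1 fell in the second. PANX1, an ATP release channel, rose by 1.78 (SE 0.12, adjusted *P* = 3.57e-09) and fell by 1.90 (SE 0.12, adjusted *P* = 4.31e-10), in 9 of 9 cattle each time. GJB6, a connexin, fell by 1.18 (adjusted *P* = 5.54e-05) and rose by 1.11 (adjusted *P* = 6.77e-05). ANKH, which exports ATP and pyrophosphate, was called in no comparison (0.31, 0.05 and 0.36).

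Among 15 genes of lysophosphatidic acid receptors and phosphatases, 3 rose and 6 fell in the first period, 7 rose and 2 fell in the second, and 2 rose and 0 fell in the total period. PLPP2, a lipid phosphate phosphatase, fell by 1.87 (SE 0.20, adjusted *P* = 5.77e-07) and rose by 1.97 (SE 0.20, adjusted *P* = 1.16e-07). LPCAT1, an acyltransferase of lysophosphatidylcholine, rose by 0.80 (adjusted *P* = 0.0013) in the first period, but by 0.20 (adjusted *P* = 0.257) after cyclic loess. LPCAT4, another acyltransferase, fell by 0.95 (adjusted *P* = 0.00078) and rose by 1.57 (adjusted *P* = 3.65e-06). It ended 0.62 higher (adjusted *P* = 0.0458), a call lost in 6 of 11 settings and without any 1 of 7 cattle. LPAR1, a receptor, fell by 0.31 (adjusted *P* = 0.0386) in the second period, a call lost in 5 of 10 settings and without any 1 of 8 cattle. LPAR6, another receptor, and LIPH, a lipase that makes its ligand, were picked after their values had been seen: they changed by −1.16 and −1.04 in the first and 1.34 and 1.28 in the second period.

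Among 12 genes of choline and glycerophosphocholine handling, 3 rose and 3 fell in the first period, 5 rose and 2 fell in the second, and 3 rose and 0 fell in the total period. PCYT1A, the rate-setting enzyme of phosphatidylcholine synthesis, rose by 1.31 (adjusted *P* = 1.92e-06) and fell by 1.16 (adjusted *P* = 3.57e-06). CHKB, a choline kinase, fell by 0.66 (adjusted *P* = 0.000232) and rose by 0.65 (adjusted *P* = 0.00017). SLC44A3, a choline transporter-like protein, ended 0.63 higher (SE 0.11, adjusted *P* = 0.000512). With the slide as a random block 1 of the 13 calls of the total period was left, SLC29A4, at 1.21 (adjusted *P* = 0.0263).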

How the data were processed

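RNA of 27 RE biopsies was measured on arrays with 1 color. The intensity values deposited by the authors came from Agilent Feature Extraction (version 11.0.1.1 in the output, 9.5 in the methods), which subtracts the background of each spot. The marks of the same output for well above background, saturated and outlier spots are 0 or 1, as deposited. The authors also deposited log2 values in a series matrix, which equal log2 processed intensity minus about the 75th percentile of each array (to within 0.0806), and which served as an alternative. The extraction protocol in the labels names other tissues than the tissue label, and the methods describe RE.

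Of 15646 spots, 15110 were not controls and held 15008 probes of 60 bases with 14952 gene names of the array design; 11683 probes found a current symbol in the reference table. The median log2 intensity of each array was subtracted, outlier spots were left missing, saturated spots were kept and spots of a probe were averaged. Models had 1 mean per stage and 1 effect per animal (R 4.3.3, limma 3.58.1, statmod 1.5.0), with Benjamini-Hochberg adjustment over all probes. The methods' t-test was the paired test the methods name. A gene was called at an adjusted *P* below 0.05. The procedure was tested on simulated data. The simulation of calls changed a small part of the probes, with no slide effect and no dimmer middle arrays, so it does not bear on those. The methods describe biopsies of the same cattle at every stage and paired tests. The number that ends each sample title was taken as the animal. No label states that a number is the same animal at each stage, so every value within animals rests on this assumption. Deviations from stage means had a mean correlation of 0.158 within animals (−0.151 to 0.461, above 0 in 24 of 27 pairs) and −0.020 between animals. Deviations sum to 0 over the cattle of a stage, so the value between animals follows largely from the value within animals.

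The members, lists and markers were chosen with earlier results of these data known. Named in the text are the members, NT5E, ENTPD1, ALPL, ANKH, ADORA2B, P2RY2 and LPAR1, per list and comparison the called gene with the largest rise and fall among those well above background on all arrays compared, the 5 probes most like ENPP3 by each measure (1 gene is not reported here), and KIT, MS4A2, CPA3, HDC and GATA2. KRT4, LOR, TPSB2, FCER1A, LPAR6 and LIPH were added after their values had been seen. Where a gene had several probes, the brightest stood for it. Alternatives were 75th percentile scaling, quantile normalization, cyclic loess over the 6797 probes that were bright on every array, normexp correction with an offset of 50, removal of dim probes (10165 left), keeping outlier spots, the series matrix, omission of the animal, the slide as a random (correlation 0.293) or fixed block, slide 2 or the first scan day alone, the paired test of the methods, fits with 2 stages only and each animal left out. Precision rests on 9 arrays per stage and on how far signals exceeded background. Replicates are biopsies of separate animals.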

Additional observations from a re-analysis of the deposited data

Results flagged for a closer look

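In 13 of 107 groups of 9 arrays, over 36 genes named in the text, the highest or lowest level stood apart from the others by more than Dixon's 95% limit, which chance passes in about 1 group of 20. That rate cannot be set against the whole count, since ENPP3 was chosen by its values and SLC35F5, SPTLC1, ATP6V1A, HAGH, CYB5R1, GRHL1 and METRNL were chosen for following it on these arrays. The middle array of animal 4, the dimmest of all, gave 10 of these. On it ENPP3 stood at 0.45 (the others at 1.76 to 2.93), SLC35F5 at 0.64, SPTLC1 at 0.24, ATP6V1A at −0.74 (not well above background), HAGH at 1.78, CYB5R1 at 1.09, GRHL1 at 2.70, METRNL at 4.32, CHKB at 0.91 and ACP3 at 10.89, which was the only one of them above its group. Without animal 4 the ENPP3 changes were −2.60, 3.46 and 0.86 in the first, second and total periods. The others were P2RY2 in the late array of animal 9, at −1.98, GJB6 in the early array of animal 1, at 7.51, and ADORA2B in the middle array of animal 9, at 5.72.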

How the results depend on the processing

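ENPP3 kept the sign of all 3 changes in every alternative that could be fitted; with 1 animal left out they ran from −2.94 to −2.60, 3.46 to 3.78 and 0.79 to 1.06. Without the replicate block for the animal they were −2.75, 3.67 and 0.92, and the counts of called members stayed at 3, 4 and 0. In the first period 3 of 5 other members were called: 1 after quantile normalization, 1 of 1 tested after cyclic loess, 1 of 2 without dim probes, and 0 with a fixed slide block or within slide 2 (2 and 1 at an unadjusted *P* below 0.05 in limma). In the second period 4 were called: 1 after quantile normalization, 0 of 1 after cyclic loess (0 unadjusted) and 1 of 2 without dim probes. Over all 15008 probes quantile normalization gave 3677 rises and 3492 falls in the first period, then 4060 and 3860 in the second. Cyclic loess gave 2237 and 2166 of 6797 probes, then 2406 and 2381. Without dim probes 3195 rose and 3168 fell of 10165, then 3983 and 2900. Fewer members were tested after cyclic loess and without dim probes; the causes of the other losses were not tested. With 1 animal left out the counts were 3, 4 and 0 to 1, the 1 being ENPP2 without animal 2.

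Of the list genes, 47, 58 and 13 were called in the first, second and total periods. Cyclic loess gave 24 and 22 of 38 tested in the first and second, the slide as a fixed block 10 and slide 2 alone 0 in the first (23 and 19 at an unadjusted *P* below 0.05 in limma; all probes 1254 and 7, against 9984). In the total period quantile normalization and normexp gave 8 each, the slide as a random block 1, the methods' t-test 21, fits of 2 stages 27, and leaving out 1 animal 8 (without animal 1, 3, 5, 6 or 8) to 17.

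Changes that turned sign were uncalled with all cattle and median scaling, except for ADK and P2RY2. In the first period ENPP2 gave −0.15 after quantile normalization. ENPP4 gave 0.054 with 75th percentile scaling, 0.0062 with quantile normalization, 0.057 from the series matrix, 0.63 with the slide fixed, 0.094 within the scan day and −0.081 to 0.083 with 1 animal left out. With the slide fixed NT5E gave 0.96, ENTPD1 −0.34 and ADORA2B 1.17. ENTPD1 gave −0.16 with quantile normalization, −0.050 with the slide random and −0.75 within slide 2. Normexp gave 0.14 for P2RY2, −0.11 for ADK and −0.22 for ANKH. LPAR1 gave 0.0038 with 75th percentile scaling, 0.0069 from the series matrix, 0.45 within slide 2, 0.036 within the scan day and −0.11 to 0.0066 with 1 animal left out. In the second period 75th percentile scaling and the series matrix gave −0.035 and −0.035 for ENPP4, −0.075 and −0.074 for ENTPD1, −0.13 and −0.13 for ANKH, and −0.12 and −0.12 for ADORA2B. For ANKH and ADORA2B quantile normalization gave −0.078 and −0.072, cyclic loess −0.15 and −0.13, and the slide random −0.13 and −0.15. Normexp gave −0.015 for P2RY2 and −0.13 for ENTPD1. With 1 animal left out ENTPD1 ran from −0.13 to 0.28, ANKH from −0.025 to 0.14 and ADORA2B from −0.027 to 0.21. In the total period ENPP5 gave −0.0078 with 75th percentile scaling and −0.0045 from the series matrix, ENTPD1 −0.014 with the slide random and ADORA2B 0.064 with normexp.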
